A study of Capra hircus with 6 samples.

Results

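The 10 circadian clock genes PER1, PER2, PER3, CRY1, CRY2, ARNTL, CLOCK, DBP, TEF and BHLHE40 were followed in goat (Capra hircus) adipose mesenchymal stem cells, the stromal cells from which fat cells can form. They were taken by symbol from the 16262 named genes of the deposited tables, and all 10 were found there. Cells of wild-type genotype gave the 3 control libraries, and cells overexpressing TAZ gave the other 3. TAZ is the product of WWTR1 and acts at the end of the Hippo pathway as a coactivator of transcription. Both groups are labelled as under adipogenic differentiation. The series' title also names TNF-α, but no label of a sample does, and the labels do not say how the overexpressing line was made, what the control cells carried or whether the libraries came from separate cultures. The p-values below therefore rest on library-to-library spread alone, and that spread may be technical.

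The molecular clock is a feedback loop of transcription that runs in nearly every cell of the body. CLOCK (or its relative NPAS2) pairs with BMAL1, the product of ARNTL, and the pair switches on the PER and CRY genes, whose proteins return to the nucleus and block the pair. A second loop, in which ROR proteins activate and REV-ERB proteins repress ARNTL, steadies the first, and the clock passes its rhythm on through DBP and TEF, activators that bind the same sites as the repressor NFIL3. In fat tissue the clock is known for its links to lipid handling and to fat cell formation. The labels give no time of day, and no time since a medium change, for any library. A shift in the phase of a rhythm and a change in its mean level therefore cannot be told apart here, and nor can less RNA per cell and fewer cells with the RNA.

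Levels are in FPKM, fragments per kilobase of gene length scaled to the library total, and so can be set side by side between genes. The libraries held 33871397 to 37705644 counted fragments. The overexpressed gene WWTR1 had levels of 30.2, 29.9 and 35.9 FPKM (control replicates 1 to 3) and of 84.6, 118.1 and 84.2 FPKM (TAZ replicates 1 to 3), as the labels state, and per-library values below keep that order. All 9 stromal marker genes were expressed, with summed levels of 9008 to 9931 FPKM (controls) and 9854 to 11200 FPKM (TAZ). The 5 adipocyte markers summed to 17.2 to 19.6 and 16.8 to 19.5 FPKM, and only CIDEC passed 1 FPKM. The 5 leukocyte markers summed to 0.736 to 0.918 FPKM (controls) and 0.0820 to 0.195 FPKM (TAZ), with PTPRC at 0 throughout. The 5 endothelial markers summed to 0.336 to 0.533 and 0.137 to 0.316 FPKM, with KDR at 0 throughout, the 4 epithelial markers to 0.553 to 0.744 and 0.0902 to 0.159 FPKM, and the 3 skeletal muscle markers found in the tables to 0.407 to 0.422 and 0.233 to 0.348 FPKM. Members of 1 sum could go opposite ways. Among the endothelial markers, mean PECAM1 fell from 0.37 to 0.093 FPKM while mean VWF rose from 0.032 to 0.077 FPKM. Of the leukocyte markers, mean CD3E fell from 0.598 to 0.0769 FPKM and mean CD79A from 0.215 to 0.0142 FPKM. CSF1R and ITGAM overlapped between the groups. Of the epithelial markers, mean KRT14 fell from 0.504 to 0.0888 FPKM and mean CDH1 from 0.130 to 0.00971 FPKM. KRT5 overlapped, and mean EPCAM rose from 0.00309 to 0.0292 FPKM. The sums alone do not give how many such cells were present. The part of such cells in the clock gene results was not tested.

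The clock genes moved in both directions in the TAZ libraries. PER1 and CLOCK rose, while ARNTL, BHLHE40 and PER3 fell, CRY1, CRY2, DBP and TEF did not pass the test, and PER2, too low for the main test, fell in a test with no filter. The test was limma's moderated test on log2(FPKM + 1), with Benjamini-Hochberg adjustment over the 10750 genes that reached 1 FPKM in at least 3 of the 6 libraries, and a gene was called at an adjusted p under 0.05. Of the 9 clock genes tested, 2 rose and 3 fell, against a background of 37.9% of all tested genes called, 15.7% higher and 22.1% lower. The share of clock genes called was 55.6%, and their median log2 difference was -0.092, against -0.050 over all tested genes. PER1 passed the filter only through the TAZ libraries, where it is high, and so is not independent support for that count. The clock genes were also chosen with earlier results of these data known. The 2 groups did not overlap for 6 of the 9 genes, 2 with the TAZ libraries above and 4 below, where 48.4% of all tested genes did not overlap, 19.7% above and 28.7% below. Median-ratio scaling turned the balance over all genes from 1693 higher and 2381 lower to 2030 and 1784, and left 2 clock genes that rose and 2 that fell. Differences below are on the log2(FPKM + 1) scale, TAZ minus control. The added 1 makes changes of low genes look smaller. The ratio of mean FPKM with nothing added, or the FPKM levels from which it follows, is therefore given beside them.

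**Figure D1:**
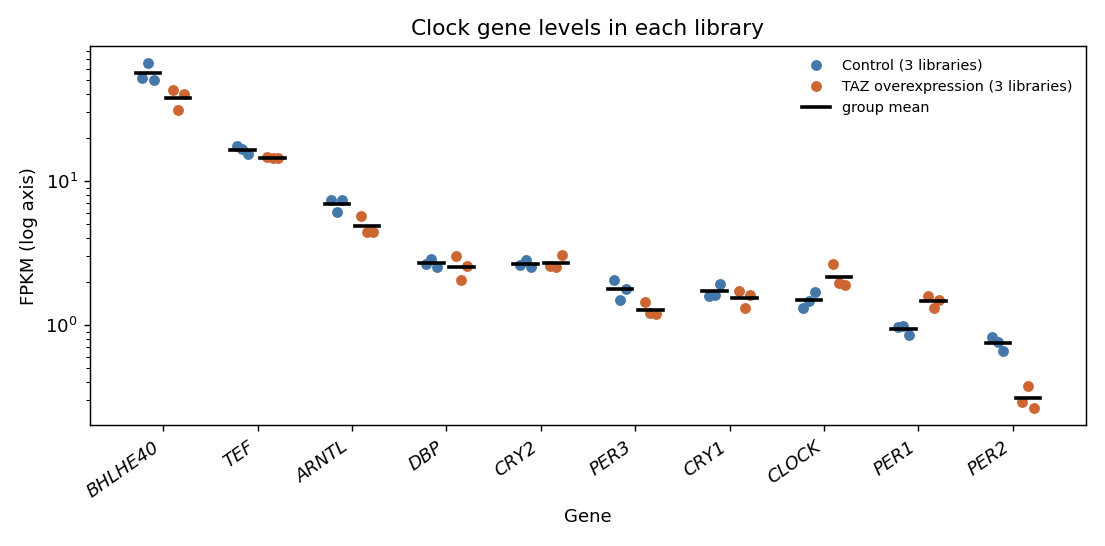
Level of each of the 10 clock genes (FPKM, log axis) in the 3 control and 3 TAZ libraries, ordered by the control mean, with points for single libraries and bars for group means. BHLHE40 is the highest gene and PER2 the lowest in both groups. The points of the 2 groups separate for PER1, PER2, PER3, ARNTL, CLOCK, TEF and BHLHE40 and overlap for CRY1, CRY2 and DBP.

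The 10 genes spanned a wide range of levels in the controls. BHLHE40 led at 50.3 to 65.7 FPKM, followed by TEF at 15.4 to 17.4 FPKM and ARNTL at 6.09 to 7.37 FPKM, with no overlap between these neighbours. DBP and CRY2 came next and could not be ordered, at 2.53 to 2.86 and 2.52 to 2.81 FPKM. PER3, CRY1 and CLOCK formed a lower set in which each range overlapped the next. PER1 at 0.849 to 0.989 FPKM and PER2 at 0.658 to 0.831 FPKM were the lowest. In the TAZ libraries the first 3 places and the last were held by the same genes, whereas CLOCK stood above CRY1, and PER1 and CRY1 overlapped, as did PER1 and PER3.

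The activating arm changed in its make-up. CLOCK, a basic helix-loop-helix factor, stood at 1.31, 1.47 and 1.70 FPKM in the controls and at 2.63, 1.96 and 1.90 FPKM in the TAZ libraries. Every TAZ library was above every control, and TAZ replicate 1 was the highest. The group means were 1.49 ± 0.195 and 2.16 ± 0.407 FPKM (SD, n = 3 each), a ratio of 1.45 (log2 difference 0.34, SE 0.11, limma adjusted p = 0.0305). That call was lost without control replicate 1 (limma adjusted p = 0.105), control replicate 2 (0.0702) or TAZ replicate 1 (0.139). It was also lost with no filter on low genes (0.0856). ARNTL, which encodes the partner BMAL1, stood at 7.37, 6.09 and 7.33 FPKM in the controls and at 5.75, 4.42 and 4.44 FPKM in the TAZ libraries. Here every TAZ library was below every control, with TAZ replicate 1 nearest to them. The means were 6.93 ± 0.725 and 4.87 ± 0.761 FPKM, a ratio of 0.703 (log2 difference -0.44, SE 0.12, limma adjusted p = 0.00937), and with no filter the adjusted p was 0.0530.

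ARNTL and CLOCK thus changed in opposite directions, which brought their levels closer together. The difference of their log2(FPKM + 1) levels was 1.86, 1.52 and 1.63 for the controls against 0.894, 0.873 and 0.909 under TAZ overexpression. The change of -0.776 had an exact permutation p = 0.1 (two-sided), the smallest that 3 libraries against 3 can give, and 0.2 after adjustment over the 6 pairs of members compared. Their close relatives moved too. ARNTL2, which encodes the BMAL1 relative BMAL2, rose from 0.416 ± 0.0901 to 2.13 ± 0.462 FPKM, a ratio of 5.12 (log2 difference 1.14, SE 0.12, limma adjusted p = 7.11e-06). Its control values rest on only 29, 36 and 24 fragments, and it passed the filter only through the TAZ libraries, where it is high. NPAS2, which can stand in for CLOCK, rose from 2.44 ± 0.470 to 3.46 ± 0.508 FPKM, a ratio of 1.42 (log2 difference 0.38, SE 0.12, limma adjusted p = 0.0280). The call of NPAS2 was lost without control replicate 3 (limma adjusted p = 0.0883), without TAZ replicate 1 (0.0955) and without TAZ replicate 3 (0.0734). ARNTL2 made up 5.76 ± 1.78% of the summed ARNTL and ARNTL2 FPKM among controls and 30.3 ± 3.98% under TAZ overexpression, while that sum was 7.34 ± 0.643 against 7.00 ± 1.11 FPKM, with overlapping groups. The sum of CLOCK and NPAS2 was 3.93 ± 0.278 FPKM for the controls against 5.63 ± 0.838 FPKM. CLOCK made up 38.4 ± 7.87% of it among controls, with a wide spread, and 38.4 ± 3.33% under TAZ overexpression. The ratio of the first sum to the second was 1.88, 1.64 and 2.12 for the controls against 1.26, 1.24 and 1.23, so the TAZ libraries lay close together and below every control.

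The 3 PER genes, which encode repressors that work together with the CRY proteins, did not move as a family. PER1, whose promoter is known to respond to glucocorticoids and cyclic AMP, stood at 0.973, 0.989 and 0.849 FPKM in the controls and at 1.59, 1.31 and 1.49 FPKM in the TAZ libraries. These values rest on 234 to 271 fragments per control library and 393 to 439 per TAZ library, and the groups were well apart. The ratio of means was 1.56 (0.937 ± 0.0767 and 1.46 ± 0.142 FPKM, log2 difference 0.35, SE 0.095, limma adjusted p = 0.0119). PER1 was called under all 16 alternatives that could test it, at adjusted p-values from 0.00239 to 0.0455.

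PER2, the PER gene most often tied to metabolism and to human sleep phase, moved the other way. It stood at 0.831, 0.765 and 0.658 FPKM in the controls and at 0.292, 0.374 and 0.265 FPKM in the TAZ libraries, from 175, 156 and 137 and from 60, 85 and 59 fragments. The highest TAZ library was well below the lowest control, and the ratio of means was 0.414 (0.751 ± 0.0875 and 0.311 ± 0.0568 FPKM). With no filter, where 23.8% of 16262 genes were called and 13.5% were called lower, the log2 difference was -0.42 (SE 0.049, limma adjusted p = 0.00331). On the fragment numbers, tested with limma's voom over the 12649 genes with at least 10 fragments in 3 libraries (36.5% called, 20.8% lower), it was -1.27 (SE 0.21, adjusted p = 0.000329). Leaving out any 1 library kept PER2 called in both fits, at adjusted p-values from 0.000200 to 0.0214. The spread of PER2 between the TAZ libraries, a coefficient of variation of 18.3%, was not far above the 12.1% that counting alone gives at this depth.

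PER3, the member of the family with the weakest part in the core loop, stood at 2.05, 1.498 and 1.77 FPKM in the controls and at 1.43, 1.21 and 1.19 FPKM in the TAZ libraries. The gap between the lowest control and the highest TAZ library was small. The means were 1.77 ± 0.275 and 1.28 ± 0.135 FPKM, a ratio of 0.721 (log2 difference -0.28, SE 0.10), and the limma adjusted p of 0.0491 was just inside the threshold. It was lost under 8 of 16 alternatives, among them median-ratio scaling (limma adjusted p = 0.0737). It was also lost without control replicate 1 (0.183), without control replicate 3 (0.0771), without TAZ replicate 2 (0.122) and without TAZ replicate 3 (0.134).

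Within the PER family, PER1 went from the second place in each control library to the first in each TAZ library. It made up 25.3, 30.4 and 25.9% of the summed PER FPKM among controls and 47.9, 45.3 and 50.6% under TAZ overexpression. The share of PER2 went from 21.7 ± 1.74% to 10.3 ± 2.34%, and that of PER3 from 51.1 ± 4.39% to 41.8 ± 1.42%. The sum itself was 3.46 ± 0.338 against 3.05 ± 0.230 FPKM, with overlapping groups. The log2 difference between PER1 and PER2 widened by 0.763, from 0.107, 0.173 and 0.157 to 1.001, 0.748 and 0.978 (exact permutation p = 0.1, 0.2 after adjustment). That of PER1 minus PER3 turned from -0.628, -0.329 and -0.586 to 0.088, 0.064 and 0.184, so PER1 passed from below PER3 to above it (change 0.626, exact permutation p = 0.1, 0.2 after adjustment). The difference of PER2 minus PER3 changed by -0.137 with overlapping groups (exact permutation p = 0.4, 0.4 after adjustment), but this value depended on the pseudocount and was -0.618 with 0.1 in place of 1. With nothing added, PER2 stood at 0.406, 0.511 and 0.371 times the FPKM of PER3 in the controls and at 0.204, 0.310 and 0.222 times under TAZ overexpression, without overlap.

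**Figure D2:**
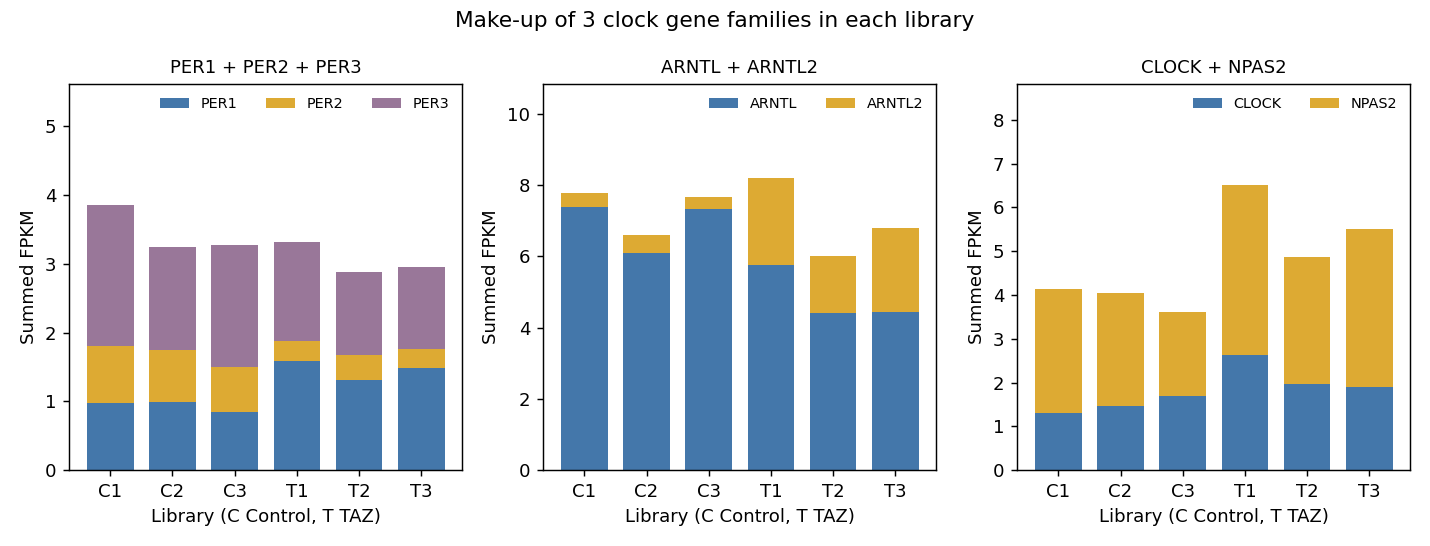
Summed FPKM of PER1, PER2 and PER3 (left), of ARNTL and ARNTL2 (middle) and of CLOCK and NPAS2 (right) in each control (C) and TAZ (T) library, with a colour for each gene. The PER and ARNTL sums overlap between the groups while their make-up differs, with PER1 at 47.9 ± 2.65% of the PER sum in the TAZ libraries against 27.2 ± 2.82% in the controls. The CLOCK and NPAS2 sum is higher in every TAZ library.

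The CRY genes, which encode the stronger repressors of the loop, showed no difference that passed the test. CRY1 stood at 1.60, 1.62 and 1.94 FPKM in the controls and at 1.72, 1.32 and 1.62 FPKM in the TAZ libraries, with overlapping groups (log2 difference -0.092, 95% interval -0.31 to 0.13, limma adjusted p = 0.511). CRY2 stood at 2.62, 2.81 and 2.52 FPKM in the controls and at 2.58, 2.52 and 3.04 FPKM in the TAZ libraries (log2 difference 0.025, 95% interval -0.19 to 0.24, limma adjusted p = 0.871). The sign for CRY2 turned between alternatives, from -0.037 to 0.066. The log2 difference between the 2 genes changed by -0.117 (exact permutation p = 0.4, 0.4 after adjustment). With 174 to 235 fragments per library for CRY1, counting alone gave a coefficient of variation of 6.94% in the controls, where 11.1% was seen.

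BHLHE40, also known as DEC1, encodes a repressor that competes with CLOCK and BMAL1 for their DNA sites and that many signals besides the clock can induce. It stood at 51.5, 65.7 and 50.3 FPKM in the controls and at 43.0, 30.9 and 39.9 FPKM in the TAZ libraries. Every TAZ library was below every control, and the replicates numbered 2 were the extremes of both groups. The means were 55.8 ± 8.54 and 37.9 ± 6.25 FPKM, a ratio of 0.679 (log2 difference -0.55, SE 0.13, limma adjusted p = 0.00457). The call held without any 1 of the libraries and was lost only with no filter (adjusted p = 0.0565). Its relative BHLHE41, or DEC2, stood far lower and went the other way, from 2.003 ± 0.113 to 2.60 ± 0.223 FPKM (log2 difference 0.26, SE 0.096, limma adjusted p = 0.0491), but this call was lost when any 1 library was left out, at adjusted p-values from 0.0527 to 0.147. The difference between their responses was not tested. BHLHE41 made up 3.53 ± 0.655% of their summed FPKM among controls and 6.54 ± 1.40% under TAZ overexpression.

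The output factors of the PAR bZIP family were little different. DBP stood at 2.66, 2.86 and 2.53 FPKM in the controls and at 3.01, 2.06 and 2.56 FPKM in the TAZ libraries, where the highest and the lowest library of all 6 were both found (log2 difference -0.062, 95% interval -0.30 to 0.18, limma adjusted p = 0.701). Its sign also turned between alternatives, from -0.16 to 0.040. TEF stood at 17.4, 16.7 and 15.4 FPKM in the controls and at 14.8, 14.4 and 14.3 FPKM in the TAZ libraries. The groups of TEF did not overlap, yet the ratio of 0.878 did not pass (log2 difference -0.18, 95% interval -0.36 to 0.013, limma adjusted p = 0.133). HLF, the third member of that family, was below the filter at 0.325 ± 0.0795 against 0.234 ± 0.112 FPKM. NFIL3, the repressor that binds the same sites as these 3 factors, rose from 23.4, 21.5 and 23.1 FPKM to 63.7, 51.2 and 64.0 FPKM (log2 difference 1.35, SE 0.099, limma adjusted p = 2.23e-07). Set against the summed FPKM of DBP, TEF and HLF, NFIL3 stood at 1.16 ± 0.0876 times that sum among controls and at 3.45 ± 0.344 times under TAZ overexpression.

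**Figure D3:**
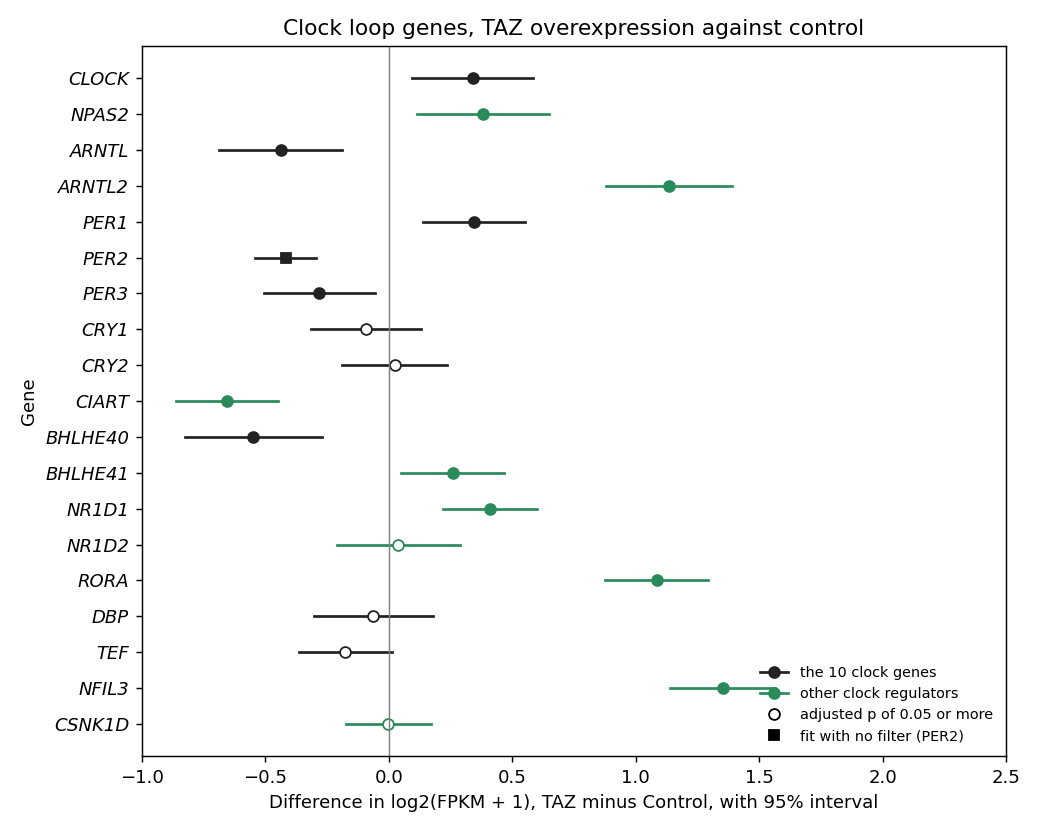
Difference in log2(FPKM + 1), TAZ minus control, with its 95% interval from limma, for the 10 clock genes (black) and 9 other genes of the loop (green), ordered by role. Filled symbols are at an adjusted p under 0.05, and the square marks PER2 from the fit with no filter. On this scale NFIL3, ARNTL2 and RORA lie farthest to the right, at 1.35, 1.14 and 1.09. CIART and BHLHE40 lie farthest to the left, at -0.66 and -0.55. The order depends on the added 1. With nothing added, the ratios of means were 2.63 for NFIL3, 5.12 for ARNTL2 and 4.69 for RORA. They were 0.572 for CIART and 0.679 for BHLHE40, and PER2 was lower still at 0.414.

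Other regulators of the clock were drawn from a list of 32 genes, of which 26 were tested. Of these 7 rose, 4 fell and 15 did not pass, a share of 42.3% called against the 37.9% of all tested genes, with a median log2 difference of -0.0027. Without TAZ replicate 1 only 4 rose, and under median-ratio scaling 8 rose and 2 fell. The list was likewise chosen with earlier results of these data known. In the second loop RORA, an activator of ARNTL, rose from 0.419, 0.380 and 0.513 FPKM to 2.25, 2.05 and 1.85 FPKM (log2 difference 1.09, SE 0.097, limma adjusted p = 1.59e-06), a ratio of 4.69. RORA passed the filter only through the TAZ libraries, as did ARNTL2. The opposing repressor gene NR1D1, which encodes REV-ERBα, also rose, from 9.54, 9.85 and 8.97 FPKM to 12.8, 12.8 and 13.1 FPKM (log2 difference 0.41, SE 0.088, limma adjusted p = 0.00253). NR1D2, which encodes REV-ERBβ, showed 8.26 ± 0.945 and 8.53 ± 1.22 FPKM and did not pass (limma adjusted p = 0.820). RORA, which activates ARNTL, and NR1D1, which represses it, thus both rose in the libraries in which ARNTL was lower. CIART, a further repressor of CLOCK and BMAL1, fell from 5.89, 5.59 and 5.76 FPKM to 3.63, 3.05 and 3.18 FPKM (log2 difference -0.66, SE 0.096, limma adjusted p = 0.000144).

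Genes whose products act on or with clock proteins went both ways. CSNK1D, the casein kinase that marks PER proteins for decay, was at 39.9 ± 1.41 and 39.9 ± 1.33 FPKM (log2 difference -0.0014, 95% interval -0.17 to 0.17, limma adjusted p = 0.990), while CSNK1E was not analysed here. CSNK2B, the regulatory subunit of casein kinase 2, fell from 40.4 ± 2.87 to 32.6 ± 1.48 FPKM, and NONO, an RNA-binding partner of PER proteins, from 117.5 ± 4.89 to 96.6 ± 0.448 FPKM (limma adjusted p = 0.0155 and 0.0122). SIRT1, a deacetylase that acts on BMAL1 and PER2, fell from 4.88 ± 0.723 to 3.70 ± 0.341 FPKM (adjusted p = 0.0413), and EP300, an acetyltransferase that CLOCK and BMAL1 recruit, rose from 9.15 ± 1.21 to 11.6 ± 1.21 FPKM (adjusted p = 0.0400). The calls of CSNK2B and SIRT1 were lost under median-ratio scaling (adjusted p = 0.0568 and 0.0662). Leaving out 1 library ended the call of EP300 in 3 of 6 cases, of SIRT1 in 4 and of CSNK2B in 2.

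Outputs and inputs of the clock were drawn from a list of 20 genes, PER1 included, of which 17 were tested. Of these 8 rose, 3 fell and 6 did not pass, a share of 64.7% called against 37.9% of all tested genes, of which 15.7% were higher and 22.1% lower. The list's median log2 difference was 0.25, against -0.050 over all tested genes, and its member PER1 passed the filter only through the TAZ libraries. The list was chosen with earlier results of these data known, so its share only describes the genes listed. NAMPT, the enzyme that paces NAD synthesis and that CLOCK and BMAL1 drive, rose from 4.04, 4.53 and 5.19 FPKM to 18.6, 15.8 and 16.7 FPKM (log2 difference 1.69, SE 0.11, limma adjusted p = 4.27e-08). NR3C1, the glucocorticoid receptor gene, rose from 5.63 ± 0.461 to 10.2 ± 1.01 FPKM (log2 difference 0.76, adjusted p = 7.00e-05). Among genes known to be induced by glucocorticoids, KLF9, a clock-controlled factor, rose from 3.87 ± 0.673 to 9.35 ± 1.99 FPKM, and FKBP5, a chaperone of the receptor, from 12.0 ± 0.963 to 20.4 ± 1.67 FPKM. TSC22D3, or GILZ, rose from 5.85 ± 0.514 to 7.66 ± 1.23 FPKM, with overlapping groups and an adjusted p = 0.0417 that was lost in 4 of 6 fits without 1 library. SGK1, a kinase gene with the same inducer, fell from 10.5 ± 1.21 to 5.69 ± 1.78 FPKM (adjusted p = 0.00204), and DUSP1, a phosphatase gene, was at 83.7 ± 12.6 and 83.3 ± 15.2 FPKM (adjusted p = 0.955). VEGFA and CDKN1A rose, to 1.52 and 1.30 times the control level, and KLF10, a repressor under clock control, fell to 0.610 times. WEE1, a cell cycle kinase gene under clock control, showed 7.47 ± 0.668 and 7.93 ± 0.449 FPKM and did not pass (limma adjusted p = 0.565).

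**Figure D4:**
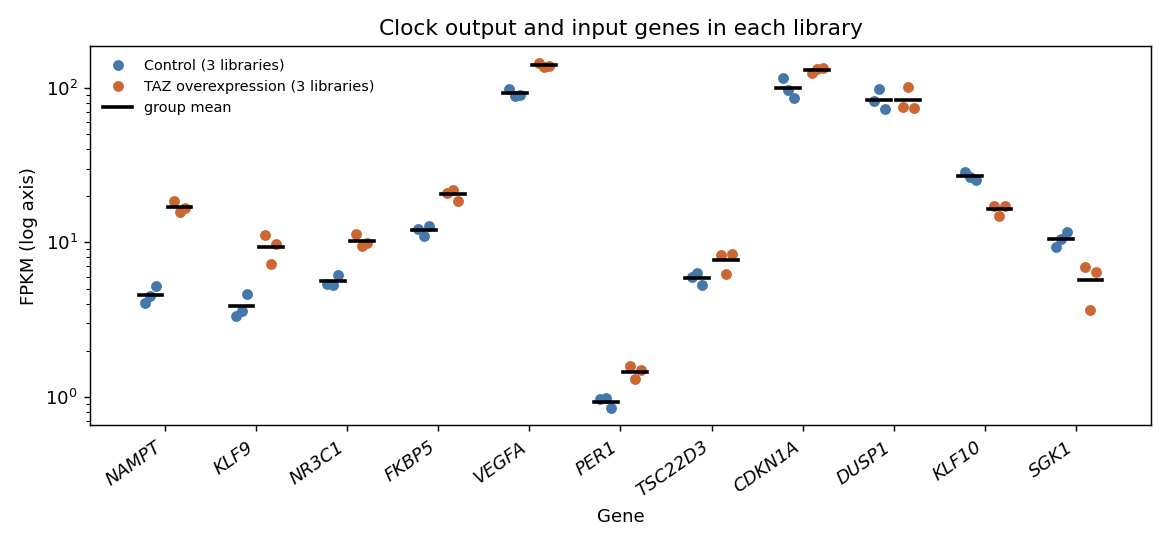
Level (FPKM, log axis) of 11 output and input genes of the clock in the 3 control and 3 TAZ libraries, with points for single libraries and bars for group means. NAMPT shows the widest gap, at 3.71 times the control mean, followed by KLF9 at 2.42 times. DUSP1 and TSC22D3 overlap between the groups.

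Within the TAZ group, replicate 1 was the highest library for 8 of the 10 clock genes and replicate 2 the lowest for 6. Replicate 2 was also the library with the highest WWTR1, and its part in these values was not tested. Among the controls, replicate 3 was the lowest for 6 genes, and replicates 1 and 2 were the highest for 4 each. PER2 was the exception among the PER genes in the TAZ group, with its highest level in replicate 2, where PER1 was lowest.

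The genes closest in pattern were found for the member of lowest adjusted p in each direction in the main test, which does not hold PER2, as the smallest root mean square difference of mean-centred log2(FPKM + 1) values over the 6 libraries among 9999 other genes. For PER1 these were FBXL14, ACTR10 and NFATC4, at differences of 0.0290, 0.0332 and 0.0341. These genes stood at 7.01 to 20.4 FPKM, where the added 1 shrinks a change less than at the level of PER1. FBXL14 went from 7.38, 7.18 and 7.01 FPKM to 9.99, 8.63 and 9.86 FPKM, while the ratio of means of PER1 was 1.56. The likeness to PER1 thus holds on this scale and was not examined for FPKM ratios. For BHLHE40 they were PIM1, GCAT and HOXC4, at 0.0267, 0.0559 and 0.0784. PIM1, a kinase gene, stood at 22.9, 29.5 and 22.3 FPKM in the controls and at 18.3, 13.2 and 18.0 FPKM in the TAZ libraries, with the replicates numbered 2 at the extremes as for BHLHE40.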

How the data were processed

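RNA was sequenced from 6 libraries, grouped by their titles. The authors deposited FPKM values in 1 table per group. The submitters' processing notes name fastp, HISAT2 and HTSeq, with no versions, and no source used here gives the genome build, the strand setting or how shared reads were treated. Paralogs and overlapping genes are therefore uncertain. In the RefSeq table of assembly ARS1.2, used for names and neighbours only, CRY1 and BHLHE40 each overlap an uncharacterised gene.

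Of 16285 rows, 23 with a date for a symbol were left out. The values step in whole fragments, which gave the library totals, gene lengths and fragment numbers (100% of 16043 rows above 0, within 0.05 of a whole number). The rows hold 99.67% to 99.7% of the totals. The main test was limma 3.58.1 in R 4.3.3 (empirical Bayes with trend, two-sided) on log2(FPKM + 1), tested on simulated data. The differences of log2(FPKM + 1) within 6 pairs of members had an exact permutation test. Other ratios, sums and shares of FPKM were not tested. Ratios of means have no pseudocount.

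Named were all 10 clock genes, the called genes of both lists (up to 8 per direction), 7 further clock genes, WWTR1 and the nearest patterns. HLF, WEE1 and DUSP1 lie outside this rule and were chosen after their values were seen. Some listed genes are counted but not reported here by name. The clock genes and lists were chosen with earlier results of these data known. Alternatives were pseudocounts of 0.1 and 0.5, other filters, scaling, empirical Bayes settings, a replicate block, voom, and leaving out each library.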

Additional observations from a re-analysis of the deposited data

How the results depend on the processing

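Over 164 alternative values of the 10 clock genes, 150 kept their side of the threshold and 14 lost a call, 8 of them for PER3, 4 for CLOCK and 1 each for ARNTL and BHLHE40. With no filter on low genes 1 clock gene rose besides 1 that fell, PER1 and PER2, and 4 regulators rose. The calls of NPAS2, BHLHE41, EP300, SIRT1, TSC22D3 and CDKN1A were also lost then, at limma adjusted p-values from 0.0545 to 0.125. At a mean of 5 FPKM or more only 3 clock genes and 18 regulators were left to test. PER1 and CLOCK were not among them, so the 0 clock genes that rose there are not lost calls. ARNTL and BHLHE40 stayed called lower, and 3 regulators rose and 2 fell. Under median-ratio scaling 2 regulators fell. With the replicate block 2 regulators fell in place of 4, and the calls of PER3 (limma adjusted p = 0.0809), BHLHE41 (0.119), SIRT1 (0.0540) and NONO (0.0631) were lost. Apart from the genes that the 5 FPKM filter left out, the cause of these changes was not tested. The labels do not say whether replicate numbers pair the libraries. Deviations from the group mean, for libraries of the same number, correlated across genes at -0.436, -0.112 and -0.403. No library correlated best with its own number. Control replicates 1, 2 and 3 correlated best with TAZ replicates 2, 3 and 1, at 0.534, 0.552 and 0.691. Deviations cancel out within each group, so some of these values must be positive and others negative. They cannot tell whether libraries shared a culture, animal or day.

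Leaving out each library gave 1 to 2 clock genes higher and 2 to 3 lower, 4 to 7 regulators higher and 3 lower each time, and 7 to 8 output genes higher and 2 to 3 lower. The differences between members of a pair kept their sign under the alternatives run. The settings for PER2 and voom over 12649 genes were chosen after seeing the data. PER2 rests on 59 to 85 fragments per TAZ library, the fewest of the 10 clock genes.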
